A study of Mus musculus with 12 samples.

Results

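Peaks of trimethylated lysine 4 of histone H3 (H3K4me3) that lie upstream of the gene they were assigned to were examined in sorted nuclei of cardiomyocytes (CMs), the contracting cells of the heart, from adult mice. A peak was taken when it lay on an autosome, was assigned to a protein-coding gene, had a deposited fraction of 0.1 or less of its length inside the body of that gene, and was under 5000 bases wide. These conditions use position and width only, and 389 of 15848 union peaks met them. The 389 peaks carried the names of 388 genes, since *Myl6b* had a pair of them. Of the 389 peaks, 330 averaged at least 10 normalized counts over the 6 libraries and were tested between the genotypes. The 59 that were not tested had a median width of 286 bases and means from 2.83 to 9.83.

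The control group, CtrlCre, carried the Cre recombinase under the α-myosin heavy chain promoter (αMHC-Cre) without a floxed *Cpt1b*. The Cpt1bcKO group carried αMHC-Cre together with *Cpt1b* fl/fl, so that the muscle isoform of carnitine palmitoyltransferase 1, the enzyme that passes long-chain fatty acids into mitochondria, is lost in CMs from embryonic stages on. Both groups were adult C57BL/6 mice, and CM nuclei were sorted from ventricles by flow cytometry with the nuclear marker PCM1. The labels list 3 H3K4me3 libraries and 3 input libraries per genotype, and only the 6 H3K4me3 libraries had columns in the table. The labels do not say which mouse or how many mice gave each library, so the p-values below measure the spread between these libraries.

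Whole counts recovered from the deposited values totalled 763133 to 2766416 per library, and the shallowest library was CtrlCre replicate 2. Libraries correlated across peaks at r of 0.914 to 0.967 on the log2 scale. The *Cpt1b* peak on chromosome 15, which does not test the deletion itself, held 428, 407 and 436 normalized counts in CtrlCre and 572, 689 and 568 in Cpt1bcKO. Peaks were present at 11 of 12 CM markers, with a median mean of 637 normalized counts. Of the endothelial, fibroblast and leukocyte markers, 1 of 8 each had a peak. These were *Kdr*, *Pdgfra* and *Cd14*, with means of 53.5, 62.2 and 38 normalized counts. The other markers of these lists, among them *Pecam1*, *Col1a1* and *Ptprc*, had none. Of 8 mural and smooth muscle markers, 5 had a peak, *Abcc9*, *Acta2*, *Kcnj8*, *Myh11* and *Cnn1*, with a median mean of 28.3 normalized counts. *Pdgfrb*, *Rgs5* and *Tagln* had none. The peaks of the 5 summed to 318 to 372 in CtrlCre and 194 to 203 in Cpt1bcKO. The part of these markers in the differences below was not tested, and in a bulk sample fewer nuclei of a type and less H3K4me3 per nucleus cannot be told apart.

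H3K4me3 is placed by methyltransferase complexes that are drawn to unmethylated CpG-rich DNA, and it marks the nucleosomes that flank active starts of transcription. Weaker H3K4me3 also occurs at active enhancers and at unannotated promoters, and start sites read in opposite directions from a shared promoter can place the mark on both sides. A peak that stops short of a gene body can therefore belong to a further start of the same gene, to a neighbour on either strand, to a noncoding RNA, to a tRNA gene or to a regulatory element.

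Sequences of the windows behind the main results are shown first, to let the peaks be told apart by base composition and CpG content. They comprise the 3 peaks with the smallest p in each direction between the genotypes and the peak with the highest mean. Each is the 300 bases around the peak centre on the forward strand of GRCm38, taken from RefSeq, with every CpG in capitals. The windows, in order, are chr15:101261509-101261808 (*Nr4a1*), chr15:76523256-76523555 (*Scrt1*), chr11:48823622-48823921 (*Trim7*), chr8:85385402-85385701 (*Mylk3*), chr15:78531110-78531409 (*C1qtnf6*), chr2:91949006-91949305 (*Gm9821*) and chr11:69039264-69039563 (*Aurkb*).
Nr4a1: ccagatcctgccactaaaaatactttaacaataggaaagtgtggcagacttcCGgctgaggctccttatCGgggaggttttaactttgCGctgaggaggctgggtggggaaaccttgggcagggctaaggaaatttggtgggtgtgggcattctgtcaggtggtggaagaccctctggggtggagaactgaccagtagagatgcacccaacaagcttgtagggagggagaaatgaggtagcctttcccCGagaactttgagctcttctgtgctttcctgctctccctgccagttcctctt
Scrt1: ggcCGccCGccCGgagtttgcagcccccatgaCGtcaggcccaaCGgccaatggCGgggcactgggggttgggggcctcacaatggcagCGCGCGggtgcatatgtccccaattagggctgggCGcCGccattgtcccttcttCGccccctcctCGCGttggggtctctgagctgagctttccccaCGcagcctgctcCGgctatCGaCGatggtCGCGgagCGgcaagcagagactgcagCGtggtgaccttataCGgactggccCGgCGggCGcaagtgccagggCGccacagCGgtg
Trim7: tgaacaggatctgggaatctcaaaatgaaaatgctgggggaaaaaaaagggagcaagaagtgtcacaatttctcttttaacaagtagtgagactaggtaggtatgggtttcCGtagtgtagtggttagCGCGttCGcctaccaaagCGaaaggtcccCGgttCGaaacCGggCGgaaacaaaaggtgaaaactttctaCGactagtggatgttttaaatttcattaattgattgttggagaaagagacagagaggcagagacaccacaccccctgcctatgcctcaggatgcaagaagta
Mylk3: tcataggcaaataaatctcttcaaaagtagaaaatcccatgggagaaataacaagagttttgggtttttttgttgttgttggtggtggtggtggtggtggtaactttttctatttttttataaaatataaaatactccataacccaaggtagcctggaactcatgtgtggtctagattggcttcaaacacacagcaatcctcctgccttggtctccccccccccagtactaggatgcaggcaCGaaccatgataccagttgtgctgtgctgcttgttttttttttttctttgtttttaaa
C1qtnf6: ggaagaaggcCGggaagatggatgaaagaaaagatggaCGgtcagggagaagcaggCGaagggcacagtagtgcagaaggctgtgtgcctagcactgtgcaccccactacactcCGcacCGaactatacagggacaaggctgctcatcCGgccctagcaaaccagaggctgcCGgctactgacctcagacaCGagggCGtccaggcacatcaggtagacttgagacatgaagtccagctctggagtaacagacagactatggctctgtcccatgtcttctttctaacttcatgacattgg
Gm9821: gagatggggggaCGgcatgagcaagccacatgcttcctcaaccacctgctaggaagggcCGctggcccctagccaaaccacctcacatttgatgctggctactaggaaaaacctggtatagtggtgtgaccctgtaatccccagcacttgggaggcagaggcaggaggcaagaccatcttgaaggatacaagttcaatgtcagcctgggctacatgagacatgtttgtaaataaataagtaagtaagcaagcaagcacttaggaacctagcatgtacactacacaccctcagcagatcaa
Aurkb: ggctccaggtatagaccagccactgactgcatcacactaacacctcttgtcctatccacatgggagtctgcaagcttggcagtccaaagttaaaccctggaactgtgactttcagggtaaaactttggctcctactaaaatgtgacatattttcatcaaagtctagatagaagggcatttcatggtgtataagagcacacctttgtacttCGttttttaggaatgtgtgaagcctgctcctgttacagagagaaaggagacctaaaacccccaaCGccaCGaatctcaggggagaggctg

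The windows differed widely in CpG. The *Scrt1* window held 28 CpG with a GC content of 68.7%, and that at *Mylk3* held 1 with a GC content of 39.7%. The *Trim7* and *C1qtnf6* windows held 10 and 9 CpG, and the *Nr4a1*, *Aurkb* and *Gm9821* windows held 4, 3 and 2. CCAAT was present in the windows at *Scrt1*, *Mylk3* and *C1qtnf6*, GGGCGG in those at *Scrt1* and *Trim7*, and TATAAA in that at *Mylk3* alone among the 7. The *Gm9821* and *Aurkb* windows held none of the 7 motifs that were searched.

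Over all 389 peaks, the 300 bases around the centre had a median GC content of 56% and a median observed over expected CpG ratio of 0.568. Peaks of the same width limit that ran across the start or end of their protein-coding gene, with a fraction above 0.1 and under 0.9, numbered 8317 and had medians of 65.7% and 0.802. Peaks inside the gene body, with a fraction of 0.9 or more, numbered 2172 and had medians of 60.3% and 0.616. Upstream peaks thus had the lowest medians of these 3 classes in both measures. The 107 peaks at a fraction of 0.2, just past the limit of 0.1, had similar medians of 55.7% and 0.607.

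Motifs were counted on both strands and without regard to overlaps between them. TATAAA, the core of the TATA box, was present in 10.3% of upstream windows and in 6.02% of the windows of all autosomal peaks. CCAAT, the core of the site bound by nuclear factor Y, was present in 29.6% against 24.3%. GGGCGG, the GC box, was present in 41.6% against 46%, and CCGGAA, the core of ETS factor sites, in 17% against 17.2%. GCGCATGC, the core of the nuclear respiratory factor 1 site, was found in 2.06% of both, and CAGCTG, an E-box, in 18.3% against 17%. TCAAGGTCA, the extended half-site of oestrogen-related receptors, was found in 0 of 389 upstream windows and in 0.501% of all autosomal windows. These shares are descriptions of letters in a window and show no binding.

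The label of these peaks was then checked against the GENCODE vM21 annotation. The peak centre lay upstream of the start of the assigned gene at 356 peaks and downstream at 33, of which 29 lay past the gene end. An example of the latter is the peak assigned to *Borcs6*, a subunit of a lysosome-positioning complex, with its centre 4877 bases downstream of the start. The median distance between peak centre and start was 3123 bases, and 140 peaks had a centre more than 4000 bases away.

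Most upstream peaks held no transcript start annotated in vM21. No start of a vM21 transcript lay inside 233 of 389 peaks (59.9%), against 0.12% of peaks across the gene start or end and 16.9% of peaks inside gene bodies. Much of this contrast follows from the rule, because a peak that runs across the gene start holds that start. A start of the assigned gene was inside 99.7% of peaks across the gene start or end. Of the 233, 34 held the start of a RefSeq transcript, 60 lay within 1000 bases of a vM21 start, and 43 overlapped the body of another protein-coding gene. A start of the assigned gene was inside 78 peaks, in 10 of them together with a protein-coding start of another gene. Another 38 peaks held only the protein-coding start of another gene, 33 the start of a long noncoding RNA (long noncoding and unclassified biotypes of vM21, without microRNAs and other small RNAs) and 7 a start of another kind.

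**Figure D1:**
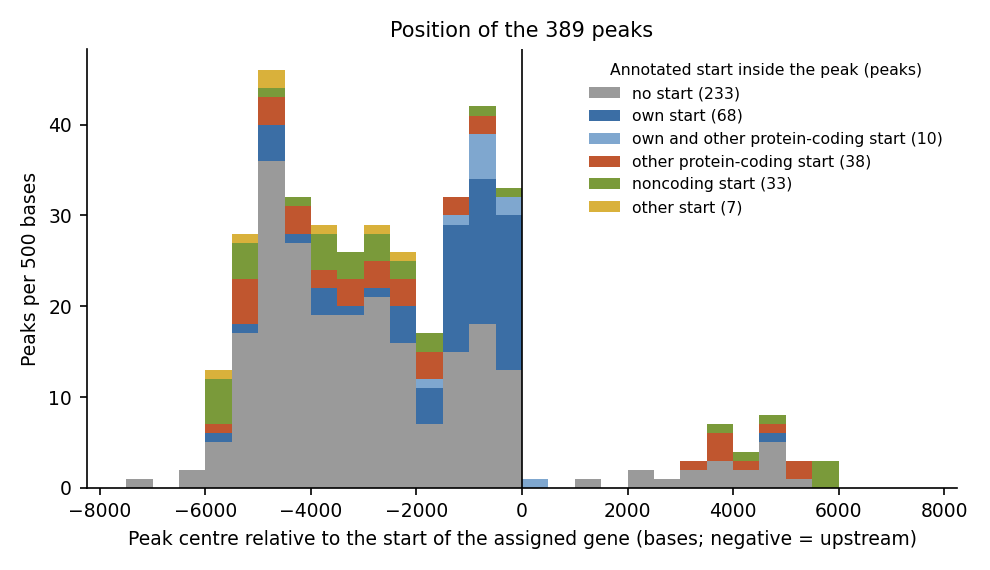
Histogram of the 389 peaks by the distance of the peak centre from the start of the assigned gene in bases (negative is upstream), in bins of 500 bases, coloured by the annotated start inside the peak. Peaks with no start (233) fill most of the bins far upstream, peaks with a start of their own gene gather close to 0, and 33 peaks lie downstream.

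The share with a start of the assigned gene was smaller farther from the gene. Of 33 peaks centred up to 500 bases upstream, 57.6% held such a start. The share was 45.1% of 91 peaks at 500 to 2000 bases, 8.18% of 110 peaks at 2000 to 4000 bases and 5.88% of 119 peaks at 4000 to 6000 bases. In the same bins, the median normalized count per kb was 27.5, 33.5, 33.7 and 35.3.

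Peaks on both sides of the limit of 0.1 are given as a description. At a fraction of 0, 353 peaks had a median mean of 27.2 normalized counts, and 12.2% held a start of their own gene. Just inside the limit, 36 peaks at a fraction of 0.1 had a median mean of 61.5, and 97.2% held a start of their own gene. Just outside, 107 peaks at a fraction of 0.2 had a median mean of 74.3, and all 107 held one.

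Protein-coding starts of other genes lay inside 48 peaks. Of these, 10 also held a start of the assigned gene, and 38 did not. In 36 of the 48, such a start of another gene was on the strand opposite to the assigned gene. The highest was the peak assigned to *Gm5129*, a predicted gene, which also holds the start of *Dnajb6*, a chaperone of the HSP40 family. It reached 301, 298 and 314 normalized counts in CtrlCre and 287, 304 and 250 in Cpt1bcKO, and the genotypes overlapped. The peak assigned to *Gm867* holds starts of *Mmp11*, a matrix metalloproteinase, and *Chchd10*, a mitochondrial cristae protein, and lies 3608 bases downstream of the start of *Gm867*. Its values were 263, 272 and 293 in CtrlCre and 279, 300 and 260 in Cpt1bcKO, again with overlap.

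The neighbouring mitochondrial genes *Mrpl36* and *Ndufs6* each had an upstream peak with a start of the other. The peak assigned to *Mrpl36*, a protein of the mitochondrial ribosome, also holds a start of *Ndufs6*, a subunit of respiratory complex I, and had a mean of 155 normalized counts. The peak assigned to *Ndufs6* holds a start of *Mrpl36* and had values of 71, 72 and 68 in CtrlCre and of 64, 59 and 51 in Cpt1bcKO. All CtrlCre values lay above those of Cpt1bcKO there, with a log2 difference of -0.28 (SE 0.18) and an adjusted p of 0.560 in limma, which did not pass.

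Starts of long noncoding RNAs lay inside 47 peaks, 34 of them with such a start on the strand opposite to the assigned gene. The highest of the 47 belonged to *Slfn14*, a Schlafen family gene, with the noncoding *AA465934* start inside it. It had 201, 177 and 177 normalized counts in CtrlCre and 207, 227 and 204 in Cpt1bcKO. The genotypes did not overlap, but the log2 difference of 0.20 (adjusted p = 0.427 in limma) did not pass.

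Several upstream peaks without an annotated promoter held tRNA genes, the short genes of transfer RNAs that RNA polymerase III transcribes. This feature was chosen after the values of the peaks were seen. RefSeq tRNA genes lay wholly inside 11 of 389 upstream peaks (2.83%), against 95 of 15356 autosomal peaks (0.619%). They lay inside 19 of 8317 peaks across a gene start or end (0.228%) and 1 of 2172 peaks inside gene bodies. The share was not particular to upstream peaks. Just outside the limit, at a fraction of 0.2, 4 of 107 peaks held tRNA genes (3.74%). The 11 peaks held 20 tRNA genes and had a median mean of 127 normalized counts, against 27.8 for the upstream peaks without one. Part of this contrast goes with width, since their median width was 2209 bases, against 930 bases over all 389. Per kb the medians were 57.8 for the 11 peaks and 33.5 over all 389.

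The highest of all 389 peaks was among them. It is assigned to *Aurkb*, the Aurora B kinase of mitosis, but its centre lies 6234 bases upstream of that gene, with no vM21 or RefSeq messenger start inside and 5 tRNA genes, for serine, threonine, proline, aspartic acid and glycine. Its values of 288, 332 and 306 normalized counts in CtrlCre and 278, 298 and 280 in Cpt1bcKO overlapped. The log2 difference was -0.11 (SE 0.10, adjusted p = 0.711 in limma). The other 10 peaks with tRNA genes were assigned to *Trim7*, *Hist1h4h*, *Zfp184*, *Psma3*, *Zfp692*, *Hist1h2bl*, *Ccdc115*, *Borcs6*, *Mok* and *Plxdc1*, with means from 20.5 to 208.

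Upstream peaks were narrow and low. Their median width was 930 bases, against 1660 bases for peaks across a gene start or end and 1250 bases inside gene bodies. The median mean was 28.8 normalized counts, against 131 and 73.7. Per kb of peak, the median over tested upstream peaks lay between 34.7 and 38.9 in the 6 libraries, between 73.7 and 76.3 for peaks across the gene start or end, and between 53.9 and 57.8 inside gene bodies. The 3 classes did not overlap in any pair of libraries, and upstream peaks held 1.02 to 1.1% of the normalized counts of each library.

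**Figure D2:**
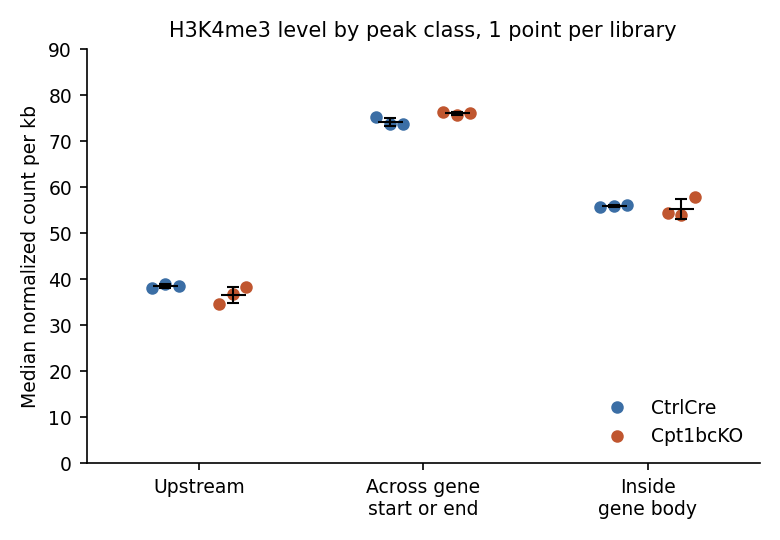
Median normalized count per kb over the tested peaks of 3 classes, with 1 point per library and the mean ± SD of 3 libraries per genotype. Upstream peaks lie between 34.7 and 38.9 in all 6 libraries, below both other classes.

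Levels among upstream peaks ranged from 2.83 to 297 normalized counts, and 54 of 389 had a mean of at least 100. Peaks with no start had a median mean of 19, and peaks with a start of their own gene but of no other protein-coding gene 43.3. Peaks with a noncoding start and no protein-coding start had 54.7, and peaks with a protein-coding start of another gene 77.5. Next to *Aurkb*, *Gm5129* and *Gm867*, the highest means were at *Rnf213*, a large ubiquitin ligase linked to moyamoya disease, and *Plxdc1*, a membrane receptor. The *Rnf213* peak held 240, 256 and 230 normalized counts in CtrlCre and 199, 222 and 194 in Cpt1bcKO. These groups did not overlap, with a log2 difference of -0.24 (SE 0.10, adjusted p = 0.284 in limma). The *Plxdc1* peak held 227, 186 and 239 in CtrlCre and 199, 198 and 199 in Cpt1bcKO, and the genotypes overlapped.

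The genotypes were compared to ask where H3K4me3 differs in CMs that cannot import long-chain fatty acids. Size factors set the bulk of peaks to no change, so each difference is relative to the other peaks. Among 330 tested upstream peaks, 2 were higher and 3 were lower in Cpt1bcKO at an adjusted p under 0.05 in limma, or 1.52%. Of all 15039 tested peaks, 2.93% were called in either direction. The precision differed between these sets, since 40.3% of tested upstream peaks and 70.6% of all tested peaks had a mean of at least 50. Above that level, 4 of 133 upstream peaks (3.01%) and 3.2% of all peaks were called.

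At an unadjusted p under 0.05, the threshold used by the study, 11 upstream peaks were higher (3.33%) and 26 were lower (7.88%) in Cpt1bcKO. Among all tested peaks, 5.84% were higher and 6.98% were lower. All Cpt1bcKO values lay above all CtrlCre values at 21 upstream peaks (6.36%), against 7.8% of all tested peaks. The reverse held at 34 upstream peaks (10.3%), against 8.46% of all tested peaks. The lower side thus held a larger share of upstream peaks than the higher side by both counts, and so it did among all tested peaks.

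**Figure D3:**
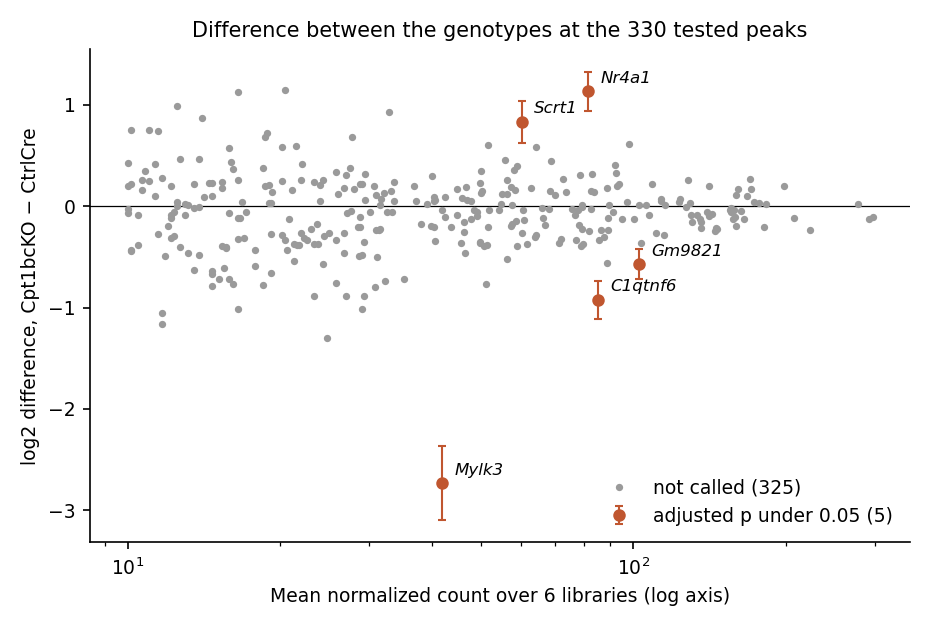
log2 difference between the genotypes (Cpt1bcKO minus CtrlCre, on log2(value + 1)) against the mean normalized count over 6 libraries on a log axis, for 330 tested upstream peaks. Bars show the SE of the 5 peaks with an adjusted p under 0.05, and the *Mylk3* peak lies far below all others.

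The lower peaks included a regulator of the sarcomere. Of the 3 that passed, the *Mylk3* upstream peak fell the most and had the smallest p. *Mylk3* encodes the cardiac myosin light chain kinase, which phosphorylates the regulatory light chain of the thick filament. The peak (chr8:85384412-85386690, GRCm38 as in the deposited table) had its centre 4573 bases upstream of the assigned start and contains a further annotated start of *Mylk3* itself. It held 74, 65 and 77 normalized counts in CtrlCre and 21, 5 and 9 in Cpt1bcKO. Every CtrlCre library lay above every Cpt1bcKO library, with means of 72 ± 6.25 and 11.7 ± 8.33 (SD, n = 3 libraries each). The log2 difference was -2.73 (SE 0.37, adjusted p = 6.16e-05 in limma).

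The strongest *Mylk3* peak, at the main start (chr8:85378374-85382581), fell as well. It held 101, 81 and 130 normalized counts in CtrlCre and 50, 42 and 36 in Cpt1bcKO, with a log2 difference of -1.25 (SE 0.19, adjusted p = 0.000395 in limma). In the controls the upstream peak thus stood at a mean of 72 against 104 at the main start. In Cpt1bcKO the means were 11.7 and 42.7. The log2 ratio of the upstream to the main peak differed by -1.48 (SE 0.38) between the genotypes, which did not pass over all such pairs (adjusted p = 0.151 in limma).

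The *C1qtnf6* upstream peak (chr15:78530532-78531987) fell too. *C1qtnf6* encodes a secreted protein of the C1q and tumour necrosis factor related family. The peak holds a further start of the gene and a start of the noncoding *Gm49490*. Its values were 101, 112 and 119 normalized counts in CtrlCre and 40, 67 and 72 in Cpt1bcKO, with no overlap. The log2 difference was -0.92 (SE 0.19, adjusted p = 0.00559 in limma).

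The third lower peak carries the name of *Gm9821*, a predicted gene, but lies 3452 bases downstream of its start and holds the start of *Dgkz*, which encodes diacylglycerol kinase zeta (chr2:91947566-91950745). It held 114, 151 and 105 normalized counts in CtrlCre and 85, 79 and 81 in Cpt1bcKO, with no overlap. The log2 difference was -0.57 (SE 0.15, adjusted p = 0.0320 in limma). The call held in 1 of 6 fits that left out a library, the fit without CtrlCre replicate 3, and adjusted p in the others ranged up to 0.166 without CtrlCre replicate 2. It was also 0.0805 without CtrlCre replicate 1, 0.0798 without Cpt1bcKO replicate 1, 0.117 without replicate 2 and 0.106 without replicate 3 of that genotype.

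Of the 2 peaks that passed on the higher side, the *Nr4a1* upstream peak rose the most. *Nr4a1* encodes a nuclear receptor without a known natural ligand that is induced quickly by many stimuli. The peak (chr15:101260597-101262719) is centred 5188 bases upstream, holds no annotated start and lies 4127 bases from the nearest one. It held 43, 44 and 65 normalized counts in CtrlCre and 84, 129 and 124 in Cpt1bcKO, with means of 50.7 ± 12.4 and 112 ± 24.7 (SD, n = 3 libraries each). The genotypes did not overlap. The log2 difference was 1.13 (SE 0.19, adjusted p = 0.00103 in limma).

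The *Scrt1* upstream peak was higher as well. *Scrt1* encodes a zinc finger repressor best known from neurons. The peak (chr15:76522794-76524016) is centred 1276 bases upstream and holds the start of 1 RefSeq transcript but none of vM21. It held 38, 51 and 39 normalized counts in CtrlCre and 69, 64 and 100 in Cpt1bcKO, with no overlap. The log2 difference was 0.83 (SE 0.21, adjusted p = 0.0274 in limma). Adjusted p was 0.125 and 0.0884 without CtrlCre replicates 1 and 3, and 0.0679 and 0.225 without Cpt1bcKO replicates 1 and 3.

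Further peaks had genotypes that did not overlap and did not pass the adjustment. On the higher side these were *Trim7*, a ubiquitin ligase gene, *Hist1h4h*, a gene of histone H4, and *Bdnf*, the gene of a neurotrophin, with log2 differences of 1.15, 0.93 and 1.13 and adjusted p of 0.137, 0.170 and 0.223 in limma. The *Trim7* peak held 9, 9 and 21 normalized counts in CtrlCre and 27, 32 and 25 in Cpt1bcKO, the *Hist1h4h* peak 11, 28 and 32 against 40, 44 and 42, and the *Bdnf* peak 10, 12 and 7 against 18, 16 and 36. The *Trim7* and *Hist1h4h* peaks each hold 1 tRNA gene. On the lower side these were *Spaca6*, a gene of a sperm protein needed for gamete fusion, and *Crnkl1*, a gene of the spliceosome, with log2 differences of -0.77 and -1.01 and adjusted p of 0.0519 and 0.0716 in limma. The *Spaca6* peak held 74, 51 and 70 in CtrlCre and 37, 36 and 39 in Cpt1bcKO, and the *Crnkl1* peak 45, 33 and 39 against 24, 16 and 17.

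**Figure D4:**
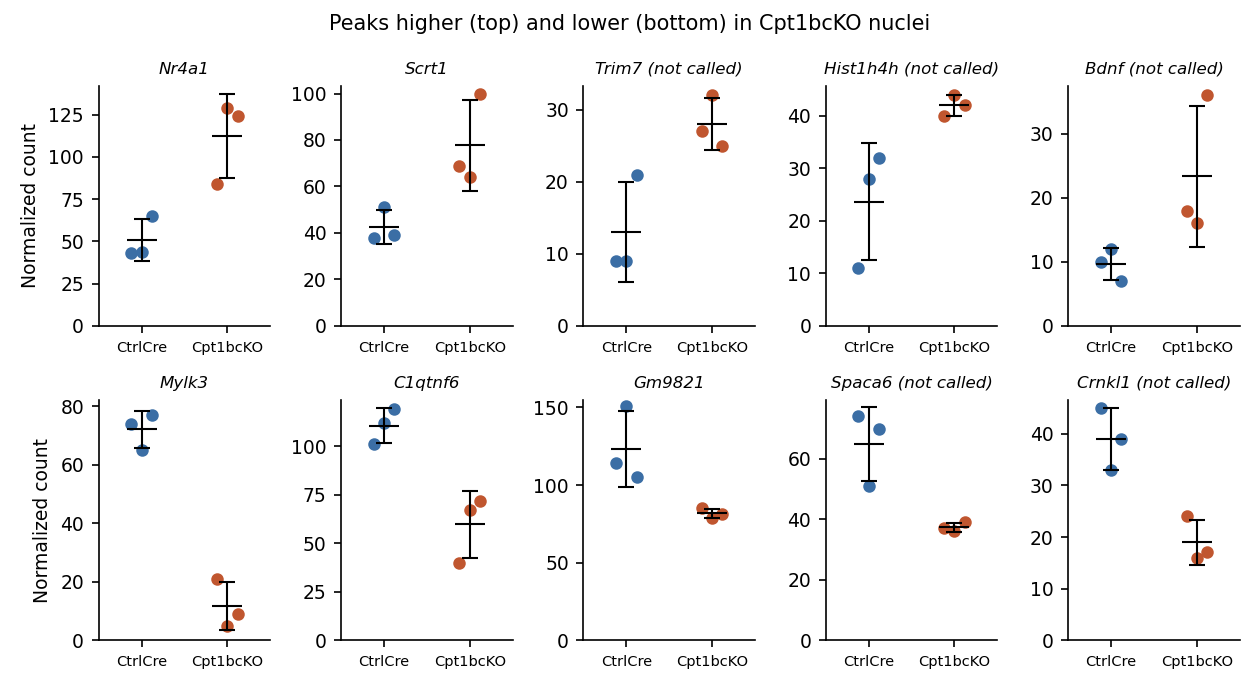
Normalized counts of 5 upstream peaks with higher (top row) and 5 with lower means (bottom row) in Cpt1bcKO, with 1 point per library and the mean ± SD of 3 libraries per genotype. At each of the 10 peaks the genotypes do not overlap, and peaks marked as not called had an adjusted p of 0.05 or more.

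Over all tested upstream peaks the shift was small. The median log2 difference was -0.05, against 0.01 over all tested peaks, with 145 peaks above 0 and 185 below. After quantile normalization the medians were -0.0034 and 0.0082. The median deviation of upstream peaks from all peaks was 0.03 ± 0.04 in CtrlCre and -0.01 ± 0.03 in Cpt1bcKO (SD, n = 3 libraries each), so the genotypes differed by about the spread between libraries. The SE of a log2 difference had a median of 0.27 for upstream peaks, 0.13 for peaks across the gene start or end and 0.17 inside gene bodies. For the 197 tested upstream peaks with a mean under 50 it was 0.35, so that many changes were not detectable at this depth.

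Larger values came mostly from low peaks. A log2 difference of at least 1 in either direction was measured at 9 upstream peaks (2.73%) and at 2.19% of all tested peaks, and 8 of the 9 had a mean under 50. In CtrlCre replicate 2, 36 of 389 peaks were at or under the value of 3 counts. Values of 0 occurred in at least 1 library at 10 peaks, and in that library at 6 of them. A value of 0 allows up to 3 counts, worth 6.97 there, a limit that covers counting error only.

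Called peaks were few whatever start a peak held. Among peaks with no start, 2 of 179 tested were called, both higher. Among peaks with a start of their own gene but of no other protein-coding gene, 2 of 65 were called (3.08%), both lower. That share was close to the 2.93% called over all tested peaks. At an unadjusted p under 0.05, 2 of these 65 were higher and 8 lower (12.3%), against 5.84% and 6.98% of all tested peaks. Among peaks with a protein-coding start of another gene, 1 of 47 was called. Of the 33 with a noncoding start and no protein-coding start, none was called. At an unadjusted p under 0.05, 0 of the 33 were higher and 2 lower. The called *C1qtnf6* peak, counted with the starts of its own gene, also holds a noncoding start.

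Gene lists are described by their counts. Upstream peaks belonged to 4 of the 60 listed genes of CM contraction and maturation, 3 were tested, and 1 passed, the *Mylk3* peak. Of the 55 tested peaks of any position that belong to this list, 2 were higher and 9 lower, against the 2.93% called over all tested peaks in both directions together. The peak assigned to *Tnnt2*, cardiac troponin T of the thin filament, holds the start of *Lad1*, a basement membrane protein gene, and had 40, 51 and 18 normalized counts in CtrlCre and 15, 16 and 9 in Cpt1bcKO. The genotypes did not overlap, with a log2 difference of -1.30 (SE 0.39) and an adjusted p of 0.0784 in limma. It was 0.0162 without CtrlCre replicate 3, so that this library decided the call. The *Xirp1* peak, at an actin-binding protein of intercalated discs, had a log2 difference of -0.44 (SE 0.53).

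For scale in the lists below, 388 of all 12371 genes with an assigned peak had an upstream peak. No upstream peak belonged to the 80 listed genes of fatty acid and lipid metabolism. The 69 tested peaks of this list elsewhere were higher in 9 and lower in 2 cases, beside the same 2.93% called over all tested peaks. In the list of glucose uptake and glycolysis, 3 of 38 genes had an upstream peak and neither of the 2 tested passed. These were *Gpi1*, glucose phosphate isomerase, with 65, 60 and 75 normalized counts in CtrlCre against 50, 61 and 42, and *Aldoa*, aldolase A, with 35, 28 and 38 against 27, 19 and 25. The *Aldoa* genotypes did not overlap and those of *Gpi1* did, with log2 differences of -0.49 and -0.39 and adjusted p of 0.513 and 0.417 in limma.

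No upstream peak of the nuclear genes of mitochondrial complexes passed. For the respiratory chain these were *Ndufs6* as above, *Ndufa4l2*, a paralogue of a respiratory chain subunit, with a log2 difference of 0.20 (SE 0.36), and *Sdhb*, the iron-sulphur subunit of complex II, with 0.09 (SE 0.23). For mitochondrial ribosomal proteins, *Mrpl45* had -0.19 (SE 0.18) and *Mrpl36* -0.04 (SE 0.12). No upstream peak was assigned to a cytosolic ribosomal protein gene or a mitochondrial carrier gene.

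In the list of cell cycle genes, 3 of 60 genes had an upstream peak, and neither of the 2 tested passed. The *Cdkn1b* peak, at the gene of the p27 inhibitor of cyclin-dependent kinases, held 56, 33 and 54 normalized counts in CtrlCre and 66, 62 and 64 in Cpt1bcKO. The genotypes did not overlap, with a log2 difference of 0.45 (SE 0.21) and an adjusted p of 0.370 in limma. The *Aurkb* peak with its tRNA genes was the other. Among H3K4 methylation enzymes, the peak of the demethylase gene *Kdm2b* held 12, 16 and 8 against 8, 9 and 8, with a log2 difference of -0.43 (SE 0.49).

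None of the 4 tested peaks on the list of stress and survival passed. The *Gclc* peak, at the gene of the catalytic subunit for glutathione synthesis, was the highest of them, with 157, 139 and 174 normalized counts in CtrlCre and 141, 149 and 115 in Cpt1bcKO. Log2 differences were -0.22 at *Gclc*, 0.59 at *Bak1*, an effector of apoptosis, 0.25 at *Egr3*, an immediate early factor, and -0.04 at *Sesn2*, a stress-induced sestrin. The *Bak1* peak holds the start of *Ggnbp1* and had 15, 14 and 19 against 24, 23 and 26, with no overlap and an adjusted p of 0.511 in limma.

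No upstream peak of the families of regulators listed passed. Zinc finger genes of the Zfp series gave 11 tested upstream peaks, with a median log2 difference of 0.02, and 2 were higher and 1 lower at an unadjusted p under 0.05. At *Zfp53* the values were 102, 35 and 112 in CtrlCre and 109, 109 and 122 in Cpt1bcKO, so that the shallow CtrlCre replicate 2 stood apart. At *Zfp184*, whose peak holds a tRNA gene, they were 59, 28 and 73 against 80, 71 and 74, again with the lowest value in CtrlCre replicate 2. The remaining named peaks of this series were *Zfp35* with a log2 difference of -0.38 and *Zfp292* with -0.24.

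Homeobox, Sox, Pax, Fox and T-box genes had 10 upstream peaks, of which 8 were tested and 0 passed, with a median log2 difference of 0.00. *Sox6*, a repressor that acts in muscle, had a mean of 88.8 at a peak shared with *1110004F10Rik*, and a log2 difference of 0.18 (SE 0.15). *Hoxa7* and *Msx2*, developmental homeobox genes, had 0.22 (SE 0.33) and -0.31 (SE 0.38), and *Nkx6-3* had -0.38 (SE 0.33).

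Histone genes of the *Hist1* cluster had 5 tested upstream peaks, none of which passed. The *Hist1h3a* peak, shared with *Hist1h1a* and *Hist1h4a*, held 126, 139 and 149 normalized counts in CtrlCre and 111, 133 and 127 in Cpt1bcKO, and the genotypes overlapped. *Hist1h2bb* and *Hist1h3b* had log2 differences of -0.18 and -0.27. Histone genes lie close together, so that such a peak cannot be ascribed to 1 gene. The lists of potassium, sodium and calcium channels and of transmembrane proteins had 3 tested upstream peaks each and no call, with *Kcnk12* at 0.46 (SE 0.53), *Kcnh3* at -0.20 (SE 0.26), *Kcnc4* at 0.03 (SE 0.45), *Tmem178b* at 0.41 (SE 0.18), *Tmem262* at -0.13 (SE 0.13) and *Tmem253* at -0.12 (SE 0.17). Among cardiac transcription factors, 1 of 28 genes had an upstream peak, which was not tested.

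Finally, upstream peaks were set against the strongest peak of the same gene. For 181 of the 330 tested upstream peaks no other peak of the gene was tested, and 30 were the strongest of several. For the remaining 119, the strongest peak ran across the gene start or end in 76 cases, lay inside the gene body in 28 and was of another class in 15. The upstream peak had a median of 28.3% of the normalized count of the strongest peak (quartiles 14.9% and 54.9%), and a median of 57.2% per kb.

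The log2 ratio of upstream to strongest peak was lower in Cpt1bcKO at 73 genes and higher at 46, with a median difference of -0.08, against -0.09 over all 262 pairs of this kind in the table. At an adjusted p under 0.05 in limma, 0 of 119 ratios passed, against 0.763% of the 262 pairs. At an unadjusted p under 0.05, 11 of 119 did, against 15.6% of the 262 pairs.

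The smallest p values of the ratio belonged to *Mylk3* as above, *Pde4a*, *Sqstm1*, *Myl6b* and *Ltb4r2*. At *Pde4a*, a cyclic AMP phosphodiesterase gene, the upstream peak held 28, 14 and 28 normalized counts in CtrlCre and 29, 27 and 29 in Cpt1bcKO. The strongest *Pde4a* peak, inside the gene body, held 57, 56 and 59 against 31, 40 and 29. The ratio differed by 1.11 (SE 0.29, adjusted p = 0.151 in limma), while the upstream peak alone had a log2 difference of 0.33 that was 0.02 without CtrlCre replicate 2.

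At *Sqstm1*, the gene of the autophagy receptor p62, the upstream peak lies within *Mgat4b* and held 30, 26 and 35 against 19, 19 and 11. The strongest *Sqstm1* peak held 260, 244 and 278 against 310, 324 and 290, and the ratio differed by -1.12 (SE 0.30, adjusted p = 0.151 in limma). In both peaks the genotypes did not overlap, and the order was reversed between them. Neither peak passed on its own.

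At *Myl6b*, a myosin light chain gene, both peaks are upstream. The nearer, which holds a start of the gene, had 77, 81 and 112 normalized counts in CtrlCre and 58, 79 and 66 in Cpt1bcKO, and the farther had 67, 56 and 102 against 89, 104 and 80. The genotypes overlapped in both, and the ratio differed by -0.71 (SE 0.21, adjusted p = 0.201 in limma). At *Ltb4r2*, a leukotriene B4 receptor gene, the upstream peak held 9, 2 and 16 against 10, 10 and 19 and the strongest 37, 44 and 67 against 24, 30 and 40, with a ratio difference of 1.37 (SE 0.50, adjusted p = 0.274 in limma). The value of 2 is below the worth of 3 counts in CtrlCre replicate 2, and the log2 difference of this upstream peak was 0.75, and 0.04 without that library.

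**Figure D5:**
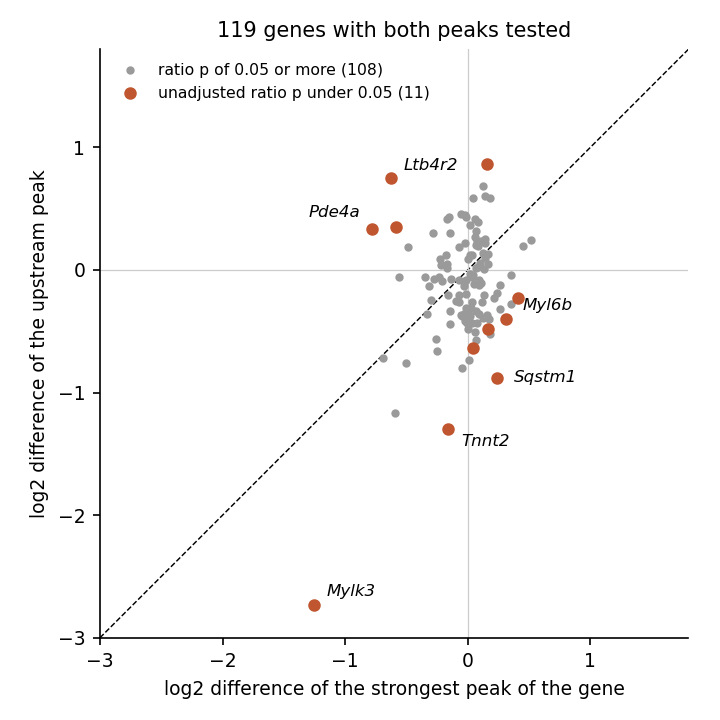
log2 difference of the upstream peak (vertical axis) against that of the strongest peak of the same gene (horizontal axis) for 119 genes, with the dashed line where both are equal. Orange points mark the 11 ratios with an unadjusted p under 0.05, and the *Mylk3* point lies at -1.25 and -2.73.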

How the data were processed

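H3K4me3 ChIP–seq was analysed from a single deposited table of union peaks. Per the methods of the study and the submitters' processing notes, the authors trimmed reads with Trimmomatic 0.39, aligned unique reads to mm10 (GRCm38) with STAR 2.6.1d, removed duplicates with Picard 2.21.7, called peaks per library against input with MUSIC, merged them and normalized counts with DESeq2 1.26.0. The deposited values per library are normalized counts rounded to whole numbers and were treated as a score. The deposited genotype means are unrounded signal values, from which whole counts were recovered at 15848 of 15848 peaks (100% of values whole). The deposited fraction of a peak inside the gene body and the distance to the start come from the annotation of the authors. The log2 fold changes and p-values computed by the authors with DESeq2 were not used.

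Peaks with a mean of at least 10 were tested with limma 3.58.1 (R 4.3.3) on log2(value + 1), with a trend, genotype alone as covariate, two-sided tests and Benjamini-Hochberg adjustment over 15039 peaks. Differences are on that scale, which understates changes of low peaks. The script was tested on simulated data. Counts in peaks ranged from 763133 to 2766416 per library, and 3 counts are worth 1.95 to 6.97. Unstranded peaks over several genes carry 1 name. Starts were taken from GENCODE vM21 by gene ID, with the assigned gene found for 388 of 389 peaks. Sequence, tRNA genes and further starts came from RefSeq GRCm38. The authors used vM15.

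The peaks and gene lists were chosen with earlier results of these data known. Named were the called peaks, filled to 5 per direction by p among peaks whose genotypes do not overlap, the 5 highest means, up to 4 further peaks per list, genes with several upstream peaks and the 5 ratios with the smallest p. Alternatives were another filter, pseudocount, quantile normalization, a replicate block, limma-voom on recovered counts and each library left out.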

Additional observations from a re-analysis of the deposited data

How the results depend on the processing

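The count of upstream peaks called at an adjusted p under 0.05 stayed at 2 higher and 3 lower with a pseudocount of 5, with quantile normalization and at a fraction of 0. limma-voom on the recovered counts called 2 higher and 6 lower upstream peaks and 503 of all peaks against 441, and the 5 calls given in the report were among its 8. A minimum mean of 50, which leaves out the *Mylk3* peak, called 2 higher and 2 lower, and no minimum called 2 higher and 4 lower. At an unadjusted p under 0.05, 11 were higher and 26 lower. Leaving out 1 library gave 1 to 2 higher and 2 to 4 lower upstream peaks, and 229 to 431 of all peaks, with the lowest count without CtrlCre replicate 1, 288 without Cpt1bcKO replicate 2 and 246 without Cpt1bcKO replicate 3. *Mylk3*, *Nr4a1* and *C1qtnf6* passed in 6 of 6 such fits, *Scrt1* in 2 and *Gm9821* in 1. Among peaks that did not pass, *Spaca6*, *Tnnt2*, *Trim7* and *Nsmce4a* passed in 1 of 6 each.

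The median log2 difference of upstream peaks was -0.0034 after quantile normalization, against -0.0512, and the cause was not tested. Without the filter on low values the median log2 level of upstream peaks lay -2.16 from that of peaks across the gene start or end, against -1.80, since 59 low upstream peaks then enter.

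The libraries share only a replicate number. Deviations of same-numbered libraries correlated at 0.0759, -0.0812 and 0.105, under 0.1 in 2 of 3 pairs, and not every library correlated best with its own number. The fit with the replicate block called 370 of all peaks, and the same 5 upstream peaks.

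Signs of small differences turned in some fits. Without 1 library the log2 difference ranged from -0.0337 to 0.0692 at *Gm867*, from -0.1613 to 0.1253 at *Sesn2*, from -0.0077 to 0.2074 at *Sdhb*, from -0.1286 to 0.0428 at *Mrpl36*, from -0.0846 to 0.5687 at *Hoxa7*, from -0.1050 to 0.9684 at *Kcnk12*, from -0.4076 to 0.0088 at *Kcnh3*, from -0.2107 to 0.3283 at *Kcnc4* and from -0.2134 to 0.0399 at *Tmem262*. *Sesn2* was also at 0.0016 after quantile normalization and at 0.0466 in limma-voom, and *Kcnc4* at -0.0774 in limma-voom. With 3 libraries per genotype and most upstream peaks under a mean of 50, differences well above the SE of a peak could also go undetected. An example was *Spaca6*, with a log2 difference of -0.77 (SE 0.21, adjusted p = 0.0519 in limma).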
